A study of Mus musculus with 6 samples.

Results

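The genes described here are the histone lysine demethylase (Kdm) genes, the KMT, SETD and NSD genes of the SET-domain methyltransferase family, the Prmt genes for arginine methyltransferases and Dot1l. The rule that chose them reads gene symbols and no measured value, and takes names of the form Kdm or Kmt with a digit and at most one letter, Setd with a digit, Nsd or Prmt with a digit, and Dot1l, without Setdb1 and Setdb2. It was set with earlier results of these data known, so shares of the group set beside those of all tested genes are descriptive. The rule gave 46 of 78298 genes in the deposited table. RNA had been sequenced after poly(A) selection in 3 libraries of epiblast-like cells (EpiLCs), a cultured state close to the epiblast after implantation, and 3 libraries of mouse embryonic stem cells (ESCs), its naive counterpart. Every library was wild type and came from a single line, labelled BVSC clone H18, so the values describe that clone, and no culture times or media are given in the sources used here. Their titles name them as biological replicates but do not say how the cultures were kept apart, so a p-value reflects only the spread among these libraries. All column names of the deposited table share a tag that the labels do not explain, given with the processing below. Levels are in TPM, a transcript abundance scaled for length and library total, so that levels of different genes can be set side by side, but the depth behind a value is unknown. In such bulk samples fewer expressing cells and less RNA per cell cannot be told apart.

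Histone tails carry methyl groups on lysine and arginine residues, written by methyltransferases that use S-adenosylmethionine and removed from lysine by flavin-dependent or JmjC-domain demethylases. Methylation of H3K4 marks promoters and enhancers, and H3K36 methylation lies over gene bodies and broad domains and is read by the de novo DNA methyltransferases. Methylation of H3K9 and H3K27 and trimethylation of H4K20 accompany repression. ESCs keep many developmental promoters under both H3K4 and H3K27 methylation.

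The libraries matched their labels. The 6 naive markers (Klf4, Tbx3, Esrrb, Tfcp2l1, Prdm14 and Nr0b1) summed to 27.8 to 31.3 TPM in EpiLC libraries and 749 to 797 TPM in ESC libraries, and the 5 epiblast markers (Fgf5, Otx2, Pou3f1, Dnmt3a and Dnmt3b) to 801 to 1077 TPM in EpiLC libraries and 34.1 to 35.6 TPM in ESC libraries. The 7 fibroblast markers summed to 12.6 to 15.9 TPM in EpiLC libraries and 3.18 to 5.70 TPM in ESC libraries, mostly Thy1, with Postn, Col3a1 and Dcn listed at 0 in every ESC library. Of these 7, Col1a1 alone had a lower mean in EpiLCs, with 0.380 TPM against 0.918 TPM in ESCs. The 7 primitive endoderm markers summed to 7.55 to 11.3 TPM in EpiLC libraries and 5.28 to 6.58 TPM in ESC libraries. The higher EpiLC sum came mainly from Dab2, with a mean of 7.12 TPM in EpiLCs and 0.123 TPM in ESCs. Sox7 was also higher, with 0.208 TPM in EpiLCs and 0.0381 TPM in ESCs. Gata4 (0.773 TPM in EpiLCs and 3.13 TPM in ESCs), Gata6, Sox17, Pdgfra and Foxa2 had lower means in EpiLCs. The 6 mesoderm and neural markers, mainly Tubb3 and Sox1, summed to 45.1 to 55.3 TPM in EpiLC libraries and 10.3 to 10.8 TPM in ESC libraries. Of these 6, T alone had a lower mean in EpiLCs, with 0.356 TPM against 0.932 TPM in ESCs. The part of such cells in the results was not tested. The replicate 2 libraries stood apart from the other libraries of their group on 2 chromosomes. Genes on chromosome 8 were at a median of 1.115 times the other replicates in EpiLC replicate 2 and 1.086 times in ESC replicate 2, and genes on the X chromosome at 0.862 times in EpiLC replicate 2 and 0.804 times in ESC replicate 2, while the other 18 chromosomes lay between 0.991 and 1.035 times. Nsd3, Setd6, Prmt7 and Prmt9 are on chromosome 8 and Kdm5c and Kdm6a on the X chromosome, and their results are given below with and without both replicate 2 libraries, a setting chosen after seeing the data.

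Most of these genes were expressed in both states, and more of them were higher than lower in EpiLCs. Of the 46 genes, 44 reached the mean of 1 TPM required for testing, 40 had a mean of at least 5 TPM, and 4 (Prmt1, Kdm1a, Prmt5 and Kmt5a) a mean of at least 100 TPM. By limma on log2(TPM + 1) with an adjusted p threshold of 0.05 over all 14036 tested genes, 25 were higher and 5 lower in EpiLCs, or 68.2% called, against 66.9% of all tested genes. The share called is therefore near the background. By direction, 56.8% of the tested genes of the group were higher, against 36.1% of all tested genes, and 11.4% were lower, against 30.9%. The median log2 change, that is the log2 of EpiLC over ESC on the log2(TPM + 1) scale, was 0.28 over the group and 0.037 over all tested genes, and with median-of-ratios scaling 0.20 and -0.033. Changes were mostly small. A change of at least 2-fold was called for 5 genes that were higher and 1 that was lower, together 13.6% of the 44. Among all tested genes 19.3% passed this mark, 9.87% as higher and 9.40% as lower. The median size of the log2 change, taken without its sign, was 0.35 over the 44, against 0.44 over all tested genes. EpiLC and ESC values did not overlap for 32 of the 44, against 71.5% of all tested genes.

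**Figure D1:**
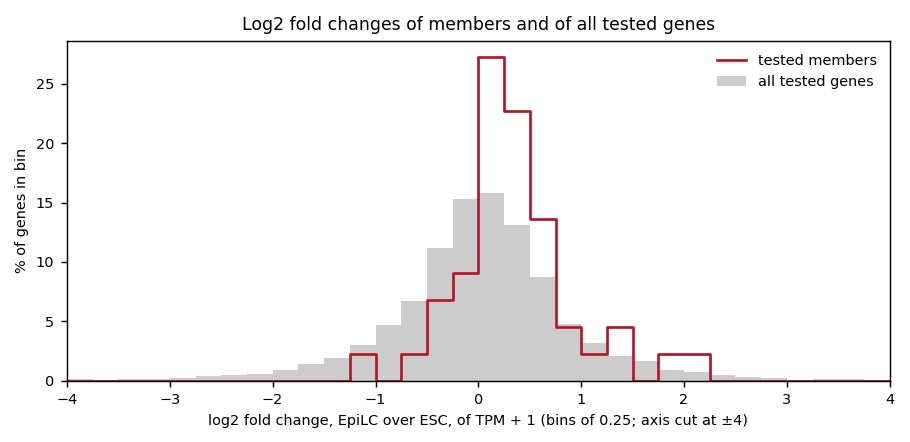
Distribution of log2 changes (horizontal axis, EpiLC over ESC on the log2(TPM + 1) scale, bins of 0.25) as the percentage of genes in each bin (vertical axis) for the 44 tested genes of the group (red outline) and all 14036 tested genes (grey bars). The outline lies to the right of the bars, with medians of 0.28 and 0.037, and has no gene beyond -1.11 or 2.06.

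**Figure D2:**
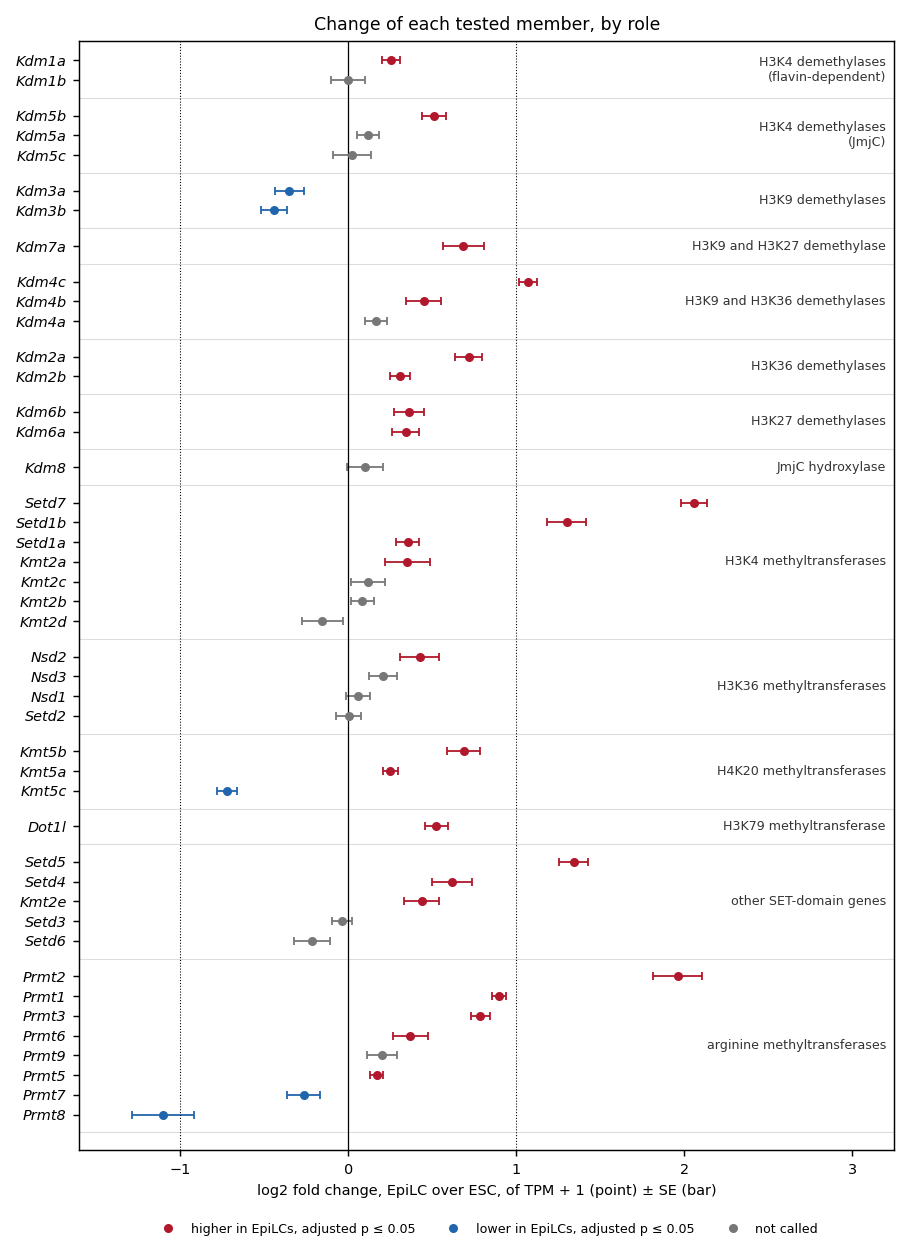
Log2 fold change of each tested gene (horizontal axis, EpiLC over ESC on the log2(TPM + 1) scale, point) with its standard error (bar), grouped by role, that is by the residue acted on or by enzyme class. Red points were higher in EpiLCs and blue points lower at an adjusted p of 0.05, and dotted lines mark 2-fold. Setd7 and Prmt2 lie farthest to the right and Prmt8 farthest to the left.

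Among the H3K4 methyltransferases, Setd7 and Setd1b rose by more than 2-fold, while Kmt2b, Kmt2c and Kmt2d did not pass the test. Setd7 (ENSMUSG00000037111), whose enzyme adds a single methyl group to H3K4 and to many other proteins, had 25.8, 26.8 and 27.8 TPM in EpiLC replicates 1 to 3, against 5.67, 5.92 and 5.44 TPM in ESC replicates 1 to 3. Every EpiLC library was far above every ESC library. The mean was 26.8 ± 0.990 TPM in EpiLCs and 5.68 ± 0.239 TPM in ESCs (SD, n = 3 each), a 4.72-fold difference (log2 change 2.06 with SE 0.075, adjusted p = 5.7e-07 by limma). Setd1b (ENSMUSG00000038384), a catalytic subunit of the COMPASS complex that trimethylates H3K4 at promoters, had 5.71, 5.25 and 4.65 TPM in EpiLCs and 1.63, 1.44 and 1.48 TPM in ESCs. Its groups did not overlap, and the mean was 3.43-fold higher in EpiLCs (log2 change 1.30 with SE 0.11, adjusted p = 3.3e-05 by limma), a log2 value that is understated at this low level by the added 1 TPM. Its paralog Setd1a stayed the more abundant, with 25.9, 27.4 and 29.0 TPM in EpiLCs and 21.8, 21.7 and 20.3 TPM in ESCs, and rose by 0.35 on the log2 scale (SE 0.069, adjusted p = 0.0024 by limma). In GENCODE M21, 51.8% of the exonic bases of Setd1a are shared with Gm49388 on the same strand, listed at 0.815 TPM in EpiLCs and 0.763 TPM in ESCs, so how reads were split between them is uncertain. The share of Setd1b in the sum of both was 18.0, 16.1 and 13.8% in EpiLCs and 6.96, 6.25 and 6.76% in ESCs. All EpiLC shares exceeded all ESC shares (two-sided exact permutation p = 0.10, the smallest that 3 against 3 libraries allow).

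The sequence around the annotated start of Setd7 is shown because this gene had the largest increase of the group in log2(TPM + 1). Prmt2 had the larger TPM ratio, 5.07-fold against 4.72-fold for Setd7. The window, from RefSeq on build GRCm38.p6, runs from 250 bases before to 50 bases after the start on the minus strand at chr3:51560774-51561073, is given 5′ to 3′, and has its 21 CpG dinucleotides in capitals.
Setd7: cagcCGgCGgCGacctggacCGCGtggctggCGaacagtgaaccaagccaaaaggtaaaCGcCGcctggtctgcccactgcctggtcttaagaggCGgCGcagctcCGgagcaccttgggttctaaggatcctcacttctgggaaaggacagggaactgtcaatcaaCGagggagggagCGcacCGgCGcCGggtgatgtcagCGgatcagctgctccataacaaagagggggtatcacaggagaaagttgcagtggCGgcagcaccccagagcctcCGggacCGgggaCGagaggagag

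Of the MLL-type genes, Kmt2b, whose enzyme methylates H3K4 at bivalent promoters, was the most abundant, with 25.2, 26.6 and 25.5 TPM in EpiLCs and 23.4, 23.4 and 26.1 TPM in ESCs. These ranges overlapped, and the difference did not pass the test (log2 change 0.083, adjusted p = 0.32 by limma). Kmt2c and Kmt2d, whose enzymes place a single methyl group on H3K4 at enhancers, were at 6.68 ± 0.313 and 8.05 ± 1.40 TPM in EpiLCs and at 6.10 ± 0.619 and 9.01 ± 0.564 TPM in ESCs (SD, n = 3 each) and did not pass the test either (adjusted p = 0.34 and 0.30 by limma). Kmt2a, the mouse MLL1 gene, was higher in EpiLCs at the edge of the threshold, with 4.59, 5.01 and 6.21 TPM in EpiLCs and 3.52, 4.44 and 3.75 TPM in ESCs. Its call (log2 change 0.35 with SE 0.13, adjusted p = 0.046 by limma) was lost with median-of-ratios scaling (adjusted p = 0.10), without EpiLC replicate 2 or 3 or ESC replicate 1 or 3 (adjusted p = 0.072, 0.14, 0.14 and 0.11) and in other settings (across alternatives 0.035 to 0.14). Summed over the 7 H3K4 methyltransferase genes, the level was 103, 105 and 108 TPM in EpiLCs and 69.8, 72.6 and 72.9 TPM in ESCs, of which the rise in Setd7 made up most.

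Demethylases of H3K4 rose in part. Kdm1a (ENSMUSG00000036940), which encodes the flavin-dependent enzyme LSD1, was the most abundant demethylase gene, with 189, 214 and 196 TPM in EpiLCs and 166, 171 and 165 TPM in ESCs. The groups did not overlap, and the rise was small (log2 change 0.26 with SE 0.054, adjusted p = 0.0037 by limma). Its relative Kdm1b, which in mouse oocytes is needed to set up maternal imprints, was at 6.85 ± 0.404 TPM in EpiLCs and 6.88 ± 0.691 TPM in ESCs and did not pass the test (adjusted p = 0.98 by limma). In the GENCODE M21 annotation, 9.19% of its exonic bases overlap Dek on the opposite strand, which was at 253 TPM in EpiLCs and 130.1 TPM in ESCs, and the sources used here do not say whether counting used strand.

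Among the JmjC enzymes for trimethylated H3K4, Kdm5b rose and the others were not called. Kdm5b (ENSMUSG00000042207) had 101, 99.2 and 115 TPM in EpiLCs, all above the 72.7, 77.2 and 69.9 TPM in ESCs. The log2 change was 0.51 (SE 0.071, adjusted p = 3.9e-04 by limma). Kdm5a, with 29.7, 33.5 and 32.8 TPM in EpiLCs and 28.4, 29.8 and 30.0 TPM in ESCs, did not pass the test (adjusted p = 0.16 by limma). Kdm5c, an X-linked gene that in mice escapes X inactivation, had 77.5, 61.8 and 73.7 TPM in EpiLCs and 76.2, 60.5 and 73.1 TPM in ESCs. In both states its replicate 2 library was the lowest, in the direction of the X-linked genes as a whole, and the groups overlapped (adjusted p = 0.87 by limma, and 0.82 without both replicate 2 libraries). The order within the family was Kdm5b above Kdm5c above Kdm5a in EpiLCs, whereas in ESCs Kdm5b and Kdm5c did not differ beyond their spread (73.3 ± 3.71 and 69.9 ± 8.33 TPM, SD, n = 3). Kdm5d and Uty, the Y-linked relatives of Kdm5c and Kdm6a, were at most 0.0041 and 0.15 TPM in any library, so Kdm5d was not tested.

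The H3K9 demethylase genes Kdm3a and Kdm3b were the demethylase genes that fell. Kdm3a (ENSMUSG00000053470) had 43.5, 45.0 and 54.3 TPM in EpiLCs and 62.3, 59.8 and 60.1 TPM in ESCs (log2 change -0.35 with SE 0.085, adjusted p = 0.0071 by limma). Kdm3b (ENSMUSG00000038773) had 29.8, 30.9 and 28.3 TPM in EpiLCs and 41.7, 36.7 and 43.9 TPM in ESCs (log2 change -0.44 with SE 0.079, adjusted p = 0.0015 by limma). Neither gene had an EpiLC value as high as its lowest ESC value, and their sum was lower in EpiLCs (73.3, 75.9 and 82.6 TPM) than in ESCs (104, 96.6 and 104 TPM). Of the exonic bases of Kdm3b, 24.6% overlap Gm26538 on the opposite strand, for which no value was used here. The third JmjC gene of this branch, Jmjd1c, carries no Kdm symbol in the table and went the other way. It had 51.8, 66.8 and 64.7 TPM in EpiLCs and 15.6, 18.8 and 17.0 TPM in ESCs (log2 change 1.77 with SE 0.11, adjusted p = 6.2e-06 by limma), so that it was below both relatives in ESCs and above Kdm3a in every EpiLC library.

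Among the Kdm4 genes, whose enzymes act on trimethylated H3K9 and H3K36, Kdm4c and Kdm4b rose. Kdm4c (ENSMUSG00000028397) had 80.2, 82.7 and 85.0 TPM in EpiLCs and 39.5, 37.7 and 39.3 TPM in ESCs. Replicates lay close together and the groups far apart (2.13-fold, log2 change 1.07 with SE 0.051, adjusted p = 1.9e-06 by limma), and with median-of-ratios scaling the log2 change was 0.99. Kdm4a had 43.4, 47.7 and 43.8 TPM in EpiLCs and 38.2, 42.8 and 39.1 TPM in ESCs. Its values did not overlap, but it did not pass the test (log2 change 0.17, adjusted p = 0.061 by limma), which it did without ESC replicate 2 and with a replicate block (adjusted p = 0.032 for each, across alternatives 0.032 to 0.29). In ESCs Kdm4a and Kdm4c were at one level, 40.0 ± 2.41 and 38.9 ± 1.00 TPM, and in EpiLCs Kdm4c was the higher. The share of Kdm4c in the family sum was 56.0, 56.7 and 57.6% in EpiLCs and 43.3, 40.5 and 43.4% in ESCs (exact permutation p = 0.10). Kdm4b rose by 0.45 on the log2 scale (adjusted p = 0.0058 by limma), to 17.9 ± 2.29 TPM in EpiLCs, against 12.8 ± 0.716 TPM in ESCs (SD, n = 3 each). Kdm4d, a testis gene in mice, was at most 0.062 TPM in a library and was not tested.

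Both H3K36 demethylase genes of the Kdm2 pair rose, Kdm2a more than Kdm2b. Kdm2b (ENSMUSG00000029475), whose protein binds CpG islands and brings a Polycomb complex to them, had 59.4, 66.5 and 65.7 TPM in EpiLCs and 52.9, 50.1 and 51.2 TPM in ESCs (log2 change 0.31 with SE 0.061, adjusted p = 0.0026 by limma). Kdm2a had 51.1, 51.9 and 47.5 TPM in EpiLCs and 29.2, 33.5 and 27.8 TPM in ESCs (log2 change 0.72 with SE 0.080, adjusted p = 1.2e-04 by limma). The groups did not overlap for either gene. The share of Kdm2a in the pair was 46.2, 43.8 and 41.9% in EpiLCs and 35.6, 40.1 and 35.2% in ESCs, without overlap (exact permutation p = 0.10).

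The H3K27 demethylase genes both rose. Kdm6a (ENSMUSG00000037369), the X-linked gene for UTX, had 52.8, 45.6 and 56.0 TPM in EpiLCs and 39.2, 40.2 and 41.4 TPM in ESCs (log2 change 0.34 with SE 0.080, adjusted p = 0.0061 by limma). The EpiLC replicate 2 value was the lowest of its group, and without both replicate 2 libraries the log2 change was 0.42 (adjusted p = 0.0030). Kdm6b, which encodes JMJD3, had 22.4, 21.5 and 21.8 TPM in EpiLCs and 15.2, 19.0 and 16.4 TPM in ESCs (log2 change 0.36 with SE 0.089, adjusted p = 0.0076 by limma). The share of Kdm6a in the pair was 70.2, 68.0 and 72.0% in EpiLCs and 72.0, 67.9 and 71.6% in ESCs, with overlap (exact permutation p = 0.90). Kdm7a, for an enzyme that acts on H3K9 and H3K27, rose by 0.68 on the log2 scale (adjusted p = 0.0014 by limma), with 5.93, 6.01 and 7.73 TPM in EpiLCs and 3.51, 3.86 and 3.65 TPM in ESCs. Kdm8, whose protein has been described as a hydroxylase of arginine, had 3.35, 3.70 and 3.16 TPM in EpiLCs and 2.95, 3.06 and 3.32 TPM in ESCs and did not pass the test (adjusted p = 0.45 by limma).

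H3K36 methyltransferase genes were expressed in both states, and Nsd2 was the one that passed the test. Nsd2 (ENSMUSG00000057406), Nsd1 and Nsd3 encode enzymes that place up to a dimethyl mark, and Setd2 the enzyme for trimethylated H3K36. Nsd2 had 61.3, 60.4 and 51.2 TPM in EpiLCs and 50.4, 38.9 and 39.2 TPM in ESCs. The highest ESC value came close to the lowest EpiLC value. The difference passed the test (log2 change 0.43 with SE 0.12, adjusted p = 0.012 by limma), but not without both replicate 2 libraries (adjusted p = 0.088, across alternatives 0.0021 to 0.088). Nsd1, with 53.4, 54.7 and 58.8 TPM in EpiLCs and 53.2, 58.0 and 49.5 TPM in ESCs, and Setd2, with 40.0, 42.5 and 47.8 TPM in EpiLCs and 43.6, 44.0 and 42.0 TPM in ESCs, overlapped between groups and did not pass the test (adjusted p = 0.51 and 0.97 by limma). Nsd3, on chromosome 8, was at 15.6 ± 1.04 TPM in EpiLCs and 13.4 ± 0.807 TPM in ESCs (SD, n = 3 each) and did not pass the test (adjusted p = 0.056 by limma, and 0.14 without both replicate 2 libraries), while it did with a replicate block (adjusted p = 0.047, across alternatives 0.047 to 0.19). The 4 genes summed to 170, 174 and 173 TPM in EpiLCs and 160, 155 and 144 TPM in ESCs, a difference of 19.3 TPM that was 10.3 TPM with median-of-ratios scaling.

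The H4K20 methyltransferase genes moved in opposite directions. Kmt5a (ENSMUSG00000049327), for the enzyme that adds the initial methyl group, was the most abundant lysine methyltransferase gene of the group, with 143, 149 and 152 TPM in EpiLCs and 125, 125 and 123 TPM in ESCs (log2 change 0.25 with SE 0.044, adjusted p = 0.0013 by limma). Kmt5b and Kmt5c encode the Suv4-20h enzymes, which add the further methyl groups. Kmt5b (ENSMUSG00000045098) had 26.4, 28.6 and 29.6 TPM in EpiLCs and 16.3, 15.5 and 19.7 TPM in ESCs (log2 change 0.69 with SE 0.098, adjusted p = 4.5e-04 by limma), whereas Kmt5c (ENSMUSG00000059851) had 30.6, 29.7 and 29.3 TPM in EpiLCs and 52.8, 49.2 and 48.0 TPM in ESCs (log2 change -0.72 with SE 0.059, adjusted p = 2.4e-05 by limma). In ESCs every library had more Kmt5c than Kmt5b, while in EpiLCs the values overlapped, with means of 29.9 ± 0.661 TPM for Kmt5c and 28.2 ± 1.62 TPM for Kmt5b (SD, n = 3 each). The share of Kmt5c in the family sum was 15.3, 14.3 and 13.9% in EpiLCs and 27.2, 25.9 and 25.2% in ESCs (exact permutation p = 0.10). The summed level of the family was 200.5, 208 and 211 TPM in EpiLCs and 194, 190.1 and 191 TPM in ESCs, a difference of 14.6 TPM that was 3.69 TPM with median-of-ratios scaling. Dot1l (ENSMUSG00000061589), the only known enzyme for H3K79, had 22.0, 22.4 and 23.4 TPM in EpiLCs, all above the 15.6, 16.0 and 14.6 TPM in ESCs (log2 change 0.52 with SE 0.069, adjusted p = 3.0e-04 by limma).

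**Figure D3:**
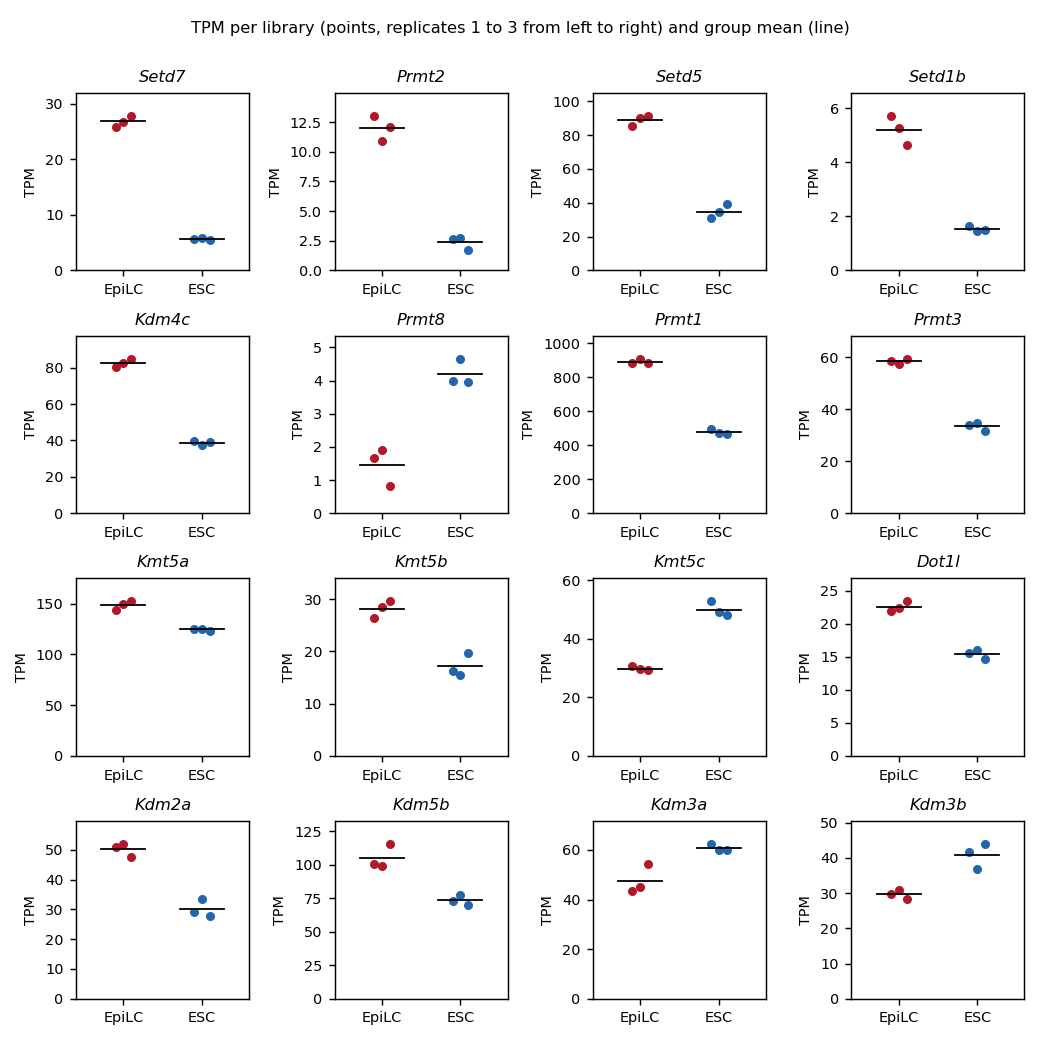
TPM (vertical axes, each from 0) of 16 genes in the EpiLC (red, left) and ESC (blue, right) libraries, with replicates 1 to 3 from left to right as points and the group mean as a line. The groups do not overlap in any panel, and Prmt8, Kmt5c, Kdm3a and Kdm3b are the panels with lower EpiLC values.

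Other SET-domain genes are named for the domain and do not all methylate histones. Setd5 (ENSMUSG00000034269), a chromatin regulator whose own methyltransferase activity is disputed, had 85.6, 90.3 and 91.3 TPM in EpiLCs and 30.7, 34.3 and 39.0 TPM in ESCs. It was the most abundant gene of this set in EpiLCs and below Setd3 and Setd6 in ESCs (2.57-fold, log2 change 1.34 with SE 0.086, adjusted p = 7.1e-06 by limma). Kmt2e, for a related protein without clear enzyme activity, rose to 8.76 ± 0.425 TPM in EpiLCs, against 6.23 ± 0.703 TPM in ESCs (SD, n = 3 each, adjusted p = 0.0064 by limma), and 9.31% of its annotated exonic bases overlap Srpk2 on the opposite strand, at 44.1 TPM in EpiLCs and 27.5 TPM in ESCs. Setd4 rose by 0.62 on the log2 scale (adjusted p = 0.0023 by limma), with 7.10, 8.07 and 8.87 TPM in EpiLCs and 4.23, 5.41 and 4.97 TPM in ESCs. Setd3, whose enzyme methylates a histidine of actin, was at 67.5 ± 1.29 TPM in EpiLCs and 69.3 ± 4.50 TPM in ESCs and did not pass the test (adjusted p = 0.61 by limma). Setd6, for an enzyme that methylates the NF-kappaB subunit RelA, lies on chromosome 8 and had 71.9, 77.3 and 63.9 TPM in EpiLCs and 76.0, 96.7 and 76.5 TPM in ESCs. Its replicate 2 value was the highest in both states, and the difference did not pass the test (log2 change -0.22, adjusted p = 0.11 by limma, and 0.099 without both replicate 2 libraries), while it did with median-of-ratios scaling (adjusted p = 0.042) and with a replicate block (adjusted p = 0.022).

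The arginine methyltransferase genes held the most abundant gene of the whole group, Prmt1. Among the tested genes of the group, they also held the one with the largest TPM ratio, Prmt2, and the one that fell most, Prmt8. Prmt1 (ENSMUSG00000109324), for the main enzyme of asymmetric arginine dimethylation, had 881, 909 and 882 TPM in EpiLCs and 497, 471 and 465 TPM in ESCs. The groups lay far apart relative to their spread (1.87-fold, log2 change 0.90 with SE 0.041, adjusted p = 1.4e-06 by limma). Its share of the summed Prmt level was 70.4, 69.9 and 70.8% in EpiLCs and 59.9, 57.7 and 58.9% in ESCs (exact permutation p = 0.10). The sum of all 8 Prmt genes was 1251, 1301 and 1246 TPM in EpiLCs and 830.1, 817 and 789.8 TPM in ESCs, and without Prmt1 it was 375 ± 14.3 TPM in EpiLCs and 335 ± 10.5 TPM in ESCs (SD, n = 3 each). Prmt1 thus accounted for most of the difference. Carm1, the enzyme also called Prmt4, which the symbol rule does not cover and which was picked out after its values were seen, was at 130.3 ± 7.14 TPM in EpiLCs and 85.8 ± 6.99 TPM in ESCs (SD, n = 3 each) and rose by 0.60 on the log2 scale (adjusted p = 1.6e-04 by limma).

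Prmt2 (ENSMUSG00000020230), for a weak enzyme described as a coactivator of nuclear receptors, had 13.0, 10.9 and 12.1 TPM in EpiLCs and 2.63, 2.75 and 1.71 TPM in ESCs. Every EpiLC library was above every ESC library by a wide margin (5.07-fold, log2 change 1.96 with SE 0.15, adjusted p = 1.5e-05 by limma). At the low ESC level this log2 change is understated by the added 1 TPM. Prmt8 (ENSMUSG00000030350), a membrane-anchored relative of Prmt1 known mainly from the brain, was the gene that fell most, with 1.67, 1.90 and 0.830 TPM in EpiLCs and 4.00, 4.66 and 3.97 TPM in ESCs. The groups did not overlap (log2 change -1.11 with SE 0.18, adjusted p = 0.0010 by limma). The ratio of the TPM means was 0.348, and at these low levels the log2 change is understated by the added 1 TPM. Without EpiLC replicate 3, the lowest library, the log2 change was -0.90 and under the 2-fold mark on that scale.

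The windows of Prmt2 and Prmt8 are shown as those of the largest TPM ratio and fall among the tested genes of the group. They come from RefSeq on build GRCm38.p6, 250 bases before to 50 bases after the annotated start, 5′ to 3′ on the minus strand. The Prmt2 window is chr10:76237816-76238115, with the word GCGCTTGCGC in capitals, and the Prmt8 window, the first of 2 annotated starts, is chr6:127769106-127769405, with CpG dinucleotides in capitals.
Prmt2: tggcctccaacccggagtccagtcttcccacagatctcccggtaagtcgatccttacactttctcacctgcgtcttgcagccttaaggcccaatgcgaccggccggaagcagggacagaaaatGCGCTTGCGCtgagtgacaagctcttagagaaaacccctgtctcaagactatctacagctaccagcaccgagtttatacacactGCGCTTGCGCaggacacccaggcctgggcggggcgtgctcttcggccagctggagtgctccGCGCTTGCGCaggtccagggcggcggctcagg
Prmt8: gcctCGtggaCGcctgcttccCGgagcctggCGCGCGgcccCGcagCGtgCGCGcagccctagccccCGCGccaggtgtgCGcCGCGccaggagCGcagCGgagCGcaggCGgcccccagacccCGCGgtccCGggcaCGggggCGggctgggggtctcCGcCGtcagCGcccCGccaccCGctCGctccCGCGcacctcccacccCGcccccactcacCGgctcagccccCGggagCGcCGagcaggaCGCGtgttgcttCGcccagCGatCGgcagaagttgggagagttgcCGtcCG

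The capitalised 10-letter word of the Prmt2 window was noticed on reading it and then searched for on both strands. It occurred 3 times there, at least once in 171 of 32851 windows (0.521%) and in 137 of the 12547 windows of tested genes (1.09%), and at least 3 times in that of Prmt2 alone. Such a match describes the letters and says nothing of a binding site. The word was picked for its repeats in this window, so the last count cannot show how rare such repeats are. The Prmt2 window held 20 CpG dinucleotides and the Prmt8 window 44.

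Windows were available for 35 of the 46 genes, 46 windows in all, since some genes have several starts. Their median CpG count was 25 per 300 bases, against 20 in the windows of tested genes and 7 in all windows. A window with at least 55% G and C and an observed-to-expected CpG ratio of at least 0.65 was found in 33 of 46 cases (71.7%), against 56.2% of windows of tested genes and 28.1% of all windows. The windows of genes called higher (20 of 26), called lower (6 of 7) and not called (7 of 11) were mostly of this kind. Among the exceptions were the Setd5 window, with 1 CpG, and a window each of Kdm3a and Kdm4c, with 0 CpG. The SP core word GGGCGG, on either strand, was in 31 of the 46 windows (67.4%) and in 63.1% of windows of tested genes, and the ETS core word CCGGAAG in 8 (17.4%) and in 17.6%. The word CACGTG was in 4 (8.70%), against 10.1%, and the TATA word TATAAA in 2 (4.35%), against 6.90%. Except for the TATA word, each of these words holds a CG and so overlap with the CpG count.

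Prmt3, Prmt5 and Prmt6 rose by less. Prmt3, which modifies a small ribosomal subunit protein, had 58.5, 57.3 and 59.4 TPM in EpiLCs and 33.9, 34.8 and 31.8 TPM in ESCs, a clear separation (log2 change 0.79 with SE 0.057, adjusted p = 1.3e-05 by limma). Prmt5, for the main enzyme of symmetric dimethylation, had 183, 187 and 183 TPM in EpiLCs and 165, 167 and 161 TPM in ESCs. It rose by 0.17 on the log2 scale (SE 0.040, adjusted p = 0.0067 by limma), a call lost with median-of-ratios scaling (log2 change 0.089, adjusted p = 0.094, across alternatives 0.0067 to 0.094). Prmt6, which modifies H3R2, had 9.96, 8.02 and 9.78 TPM in EpiLCs and 7.09, 7.10 and 6.53 TPM in ESCs (log2 change 0.37, adjusted p = 0.015 by limma), a call lost without EpiLC replicate 1 or ESC replicate 3 (adjusted p = 0.054 and 0.051, across alternatives 0.0056 to 0.054). Of its exonic bases, 23.4% overlap C130013H08Rik on the opposite strand, at 0.140 TPM in EpiLCs and 0.379 TPM in ESCs.

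Prmt7, for an enzyme that adds single methyl groups to arginine, and Prmt9 lie on chromosome 8. Prmt7 had 81.2, 99.7 and 77.2 TPM in EpiLCs and 100.3, 109.7 and 99.3 TPM in ESCs, with the highest value of each state in replicate 2 and an overlap between the states through it. The difference passed the test narrowly (log2 change -0.27 with SE 0.097, adjusted p = 0.040 by limma) and by more without both replicate 2 libraries (log2 change -0.33, adjusted p = 0.0037). The call was lost without EpiLC replicate 1 or 3 (adjusted p = 0.12 and 0.13), without ESC replicate 1, 2 or 3 (adjusted p = 0.069, 0.11 and 0.063), with no filter (adjusted p = 0.11) and with no variance trend (adjusted p = 0.072, across alternatives 0.0023 to 0.13). Prmt9 had 23.0, 26.6 and 21.4 TPM in EpiLCs and 20.5, 19.8 and 20.9 TPM in ESCs and did not pass the test (adjusted p = 0.077 by limma, and 0.35 without both replicate 2 libraries), while it did without EpiLC replicate 3 (adjusted p = 0.034, across alternatives 0.034 to 0.35).

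**Figure D4:**
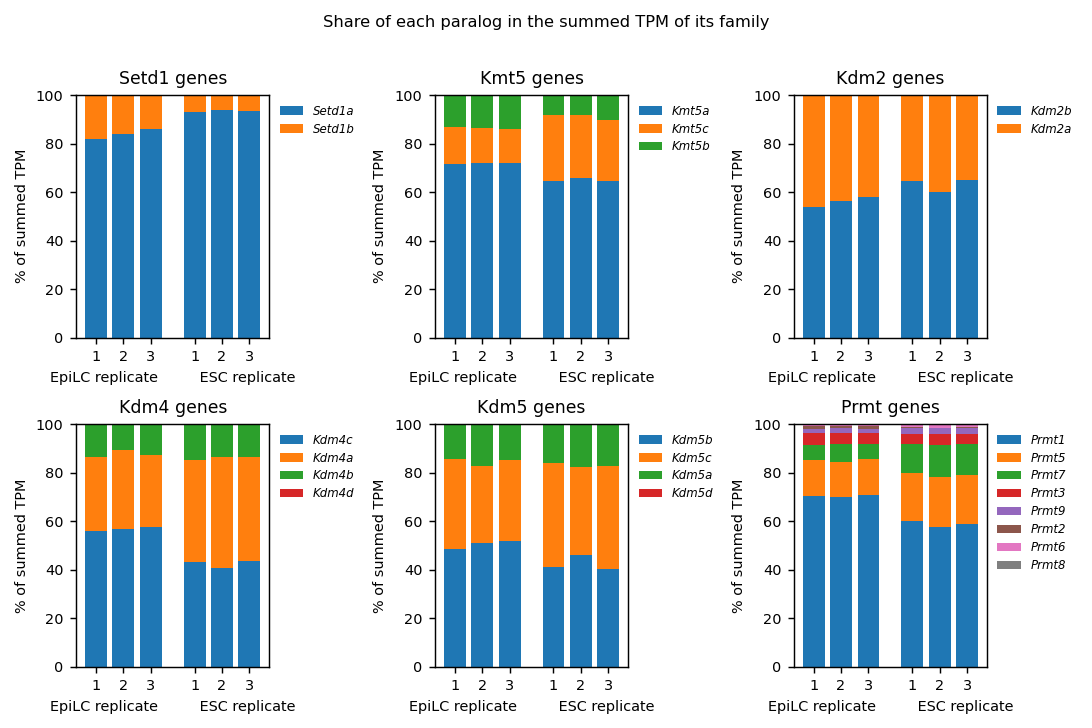
Share of each paralog in the summed TPM of its family (vertical axis, percent) in the 3 EpiLC libraries (left bars) and the 3 ESC libraries (right bars) for 6 families. The shares of Setd1b, Kmt5b, Kdm2a, Kdm4c, Kdm5b and Prmt1 are larger in every EpiLC library than in any ESC library.

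Over the 11 families, 37 paralog shares were compared. None could pass a threshold of 0.05, since 3 against 3 libraries allow no exact p below 0.10, and adjusted over the 37 shares the smallest value was 0.18. The sums of 11 roles were compared in the same way. All had separate groups and an exact permutation p of 0.10, or 0.10 after adjustment over the 11 roles. The H3K9 demethylases were the role with a lower sum in EpiLCs. That role holds Kdm3a and Kdm3b alone. The Kdm4 genes, whose enzymes also act on H3K9, form a separate role, with a mean sum of 146 TPM in EpiLCs and 91.7 TPM in ESCs. Kdm7a, also apart, had means of 6.56 TPM in EpiLCs and 3.68 TPM in ESCs. The symbol rule leaves out Jmjd1c, with means of 61.1 TPM in EpiLCs and 17.1 TPM in ESCs. The rises of the Kdm4 sum and of Jmjd1c were each larger than the fall of the Kdm3a and Kdm3b sum. The direction for H3K9 demethylase genes therefore depends on the split into roles and on the symbol rule.

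Genes that act with these enzymes moved both ways. The lists of such genes and of further enzymes were also chosen with earlier results of these data known, so their shares are descriptive. Of 15 COMPASS subunit genes, which support the H3K4 methyltransferases, 5 rose (33.3%) and 8 fell (53.3%), against 36.1% and 30.9% of all tested genes (median log2 change -0.12, against 0.037 over all tested genes), and 3 rose with median-of-ratios scaling and without EpiLC replicate 3. The scaffold subunit gene Wdr5 was among those that fell, with 132, 133 and 129.7 TPM in EpiLCs and 227, 215 and 234 TPM in ESCs (log2 change -0.77 with SE 0.047, adjusted p = 5.3e-06 by limma), a gene picked out after its values were seen. The largest fall was that of Hcfc2, to 1.90 ± 0.170 TPM in EpiLCs, against 7.67 ± 0.137 TPM in ESCs (SD, n = 3 each, log2 change -1.58, adjusted p = 6.4e-06 by limma). The largest rise, of Pagr1a, rested on scattered values of 26.4, 12.3 and 24.6 TPM in EpiLCs and 1.20, 11.8 and 9.37 TPM in ESCs (log2 change 1.67 with SE 0.63, adjusted p = 0.047 by limma) and was lost in 9 alternatives, among them those without EpiLC replicate 1 or 3 (adjusted p = 0.13 and 0.12, across alternatives 0.019 to 0.14).

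Of 12 tested partners of LSD1, 5 rose (41.7%) and 4 fell (33.3%), near the 36.1% and 30.9% of all tested genes (median 0.0098), while 1 or 2 fell in 8 alternatives. The reader subunit gene Phf21a rose most, with 40.6, 39.2 and 42.6 TPM in EpiLCs and 11.9, 13.6 and 12.0 TPM in ESCs (log2 change 1.63 with SE 0.075, adjusted p = 1.5e-06 by limma), and Zmym3 fell most, by 0.57 on the log2 scale (adjusted p = 0.0087 by limma). Of 6 partners of Dot1l, 2 rose and 2 fell, or 66.7% called against 66.9% of all tested genes (median -0.099). Aff1, a scaffold of elongation complexes, fell to 13.7 ± 1.41 TPM in EpiLCs, against 55.7 ± 6.32 TPM in ESCs (SD, n = 3 each, log2 change -1.95, adjusted p = 2.8e-06 by limma), and its paralog Aff4 rose by 0.48 on the log2 scale (adjusted p = 0.0096 by limma). Of 8 genes for Prmt partners or further arginine methyltransferases, 6 rose and 2 fell (median 0.44), or 75.0% and 25.0% against 36.1% and 30.9% of all tested genes, with Zfp326 up by 0.65 on the log2 scale (adjusted p = 5.5e-05 by limma) and Btg1, a binding partner of Prmt1, at 13.6, 12.5 and 17.0 TPM in EpiLCs and 68.7, 68.6 and 60.9 TPM in ESCs (log2 change -2.13 with SE 0.11, adjusted p = 2.7e-06 by limma).

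Of 13 further tested JmjC-domain genes, 9 rose and 1 fell (median 0.40), or 69.2% and 7.69% against 36.1% and 30.9% of all tested genes, with Jmjd1c as the largest rise and Jmjd7, down by 0.47 on the log2 scale (adjusted p = 0.0066 by limma), as the fall. Of 14 further tested histone lysine methyltransferase genes, 7 rose and 2 fell (median 0.24), and 64.3% were called, near the 66.9% of all tested genes. Ehmt1, for an H3K9 dimethyltransferase, had 67.7, 70.3 and 68.3 TPM in EpiLCs and 28.3, 33.2 and 33.5 TPM in ESCs (log2 change 1.10 with SE 0.074, adjusted p = 9.1e-06 by limma). Smyd3 had 20.5, 19.8 and 18.7 TPM in EpiLCs and 50.7, 59.3 and 54.5 TPM in ESCs (log2 change -1.43 with SE 0.074, adjusted p = 2.5e-06 by limma).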

How the data were processed

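The authors deposited TPM values in 1 table of 78298 genes with a column for each of the 6 libraries, and each column was matched to its sample by group and replicate number. Every column name also carries the tag 0uM, which the labels do not explain. Per the submitters' processing notes, STAR, Salmon, FastQC and Trim Galore were used with build mm39/GRCm39. Their versions, the annotation and the summing to genes are not given in the sources used here. TPM keeps no depth, and as shares of a library the values shift when abundant genes change.

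Genes with a mean of at least 1 TPM (14036) were tested as log2(TPM + 1) with limma 3.58.1 in R 4.3.3, using lmFit and eBayes (trend on). Its two-sided p-values were adjusted by Benjamini-Hochberg across these genes, and an adjusted p under 0.05 was called. The code was tested on simulated data. Shares and sums, computed in Python 3.11.15, were compared by two-sided exact permutation tests. Named genes are all members and, of each partner list, the called genes with the largest change in each direction, with exceptions marked. Members and lists were chosen with earlier results of these data known. Settings tried in turn were a pseudocount of 0.1 or 0.5 TPM, filters at 0 and at 5 TPM, scaling by median of ratios or quantiles, a constant variance prior, a replicate block, and the omission of libraries. Chromosomes and overlaps came from GENCODE M21 (GRCm38), by gene identifier, and promoter windows from RefSeq (GRCm38.p6).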

Additional observations from a re-analysis of the deposited data

How the results depend on the processing

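Of the 44 tested genes, 30 had the same call and direction in each of the 15 alternatives that tested them. Of these 30, 25 were called. Setd1b, Prmt8 and Kdm8, among the 30, were tested in 14 alternatives, as the filter at 5 TPM leaves them out. Without single libraries, 23 to 26 genes were higher and 4 to 5 lower. Same-numbered EpiLC and ESC libraries deviated together only weakly, with correlations of 0.102, 0.142 and 0.0646. Both replicate 2 libraries shared the departures on chromosome 8 and the X chromosome, however. Whether the numbers pair the cultures is therefore not known, and the main fit leaves them unpaired. With a replicate block 27 genes were higher and 6 lower, with Kdm4a, Nsd3 and Setd6 called in addition. Of genes lower by at least 2-fold, 0 were left at a filter of 5 TPM, which removes Prmt8, and 0 to 1 without single libraries. Among partner lists, 3 COMPASS genes rose with median-of-ratios scaling and 3 to 5 without single libraries, and the LSD1 partners that fell numbered 1 with no filter, 2 with no variance trend, 2 without both replicate 2 libraries and 1 to 3 without single libraries. Without single libraries, 1 to 2 further JmjC genes and 1 to 2 further methyltransferase genes fell. Median-of-ratios scaling, which lowered the median of all tested genes by 0.07 on the log2 scale, moved summed differences (EpiLC minus ESC) to 22.0 TPM for flavin-dependent and 25.0 TPM for JmjC H3K4 demethylases, -28.9 TPM for H3K9, 47.0 TPM for H3K9 and H3K36 and 26.9 TPM for H3K36 demethylases, 28.4, 10.3 and 3.69 TPM for H3K4, H3K36 and H4K20 methyltransferases, 33.7 TPM for other SET genes and 394 TPM for Prmt genes. Direction reversed only for genes that were not called: with that scaling the log2 change was -0.056 for Kdm5c, -0.021 for Nsd1 and -0.074 for Setd2, which was -0.019 with quantile scaling. Without single libraries it ranged over -0.072 to 0.054 for Kdm1b, -0.078 to 0.12 for Kdm5c, -0.067 to 0.060 for Setd2 and -0.067 to 0.016 for Setd3. The cause was not tested. The unknown depth limits what can be said of genes near 1 TPM.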
